A study of Arabidopsis thaliana with 9 samples.

Results

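The shoots of Arabidopsis thaliana plants labelled CUC2gm-4 were set against wild type (WT) across all genes, which uses the 6 libraries labelled CUC2gm-4 or WT (3 of each) out of the 9 in the series. Messenger RNA from aerial parts was sequenced in plants of the Col0 ecotype that were 21 days old. They grew on soil with no treatment in a short-day cycle of 8 h light and 16 h dark at 21 °C and 65% humidity. The remaining 3 libraries, from the mutant cuc2-3, helped to estimate the spread and are quoted beside a result where they place it. The series text calls both mutants knock outs, and the labels give neither the construct nor the number of independent lines behind the name CUC2gm-4. Nothing in them tells separate plant pools from repeat preparations, so the p-values below measure the spread between these samples, which may be technical.

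CUC2 encodes a NAC transcription factor that keeps neighbouring organs apart and lets the leaf margin grow out into teeth. The microRNA miR164 pairs with a stretch of the CUC1 and CUC2 coding sequence and leads to cleavage of those transcripts, while CUC3 escapes it. In published work, CUC2 transgenes altered in that stretch are freed from miR164 and make deeply toothed leaves. The labels do not say whether CUC2gm-4 carries such a change, and the counts cannot tell reads of the resident gene from those of a transgene.

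The stretch in question is shown because the level of CUC2 is where these plants differ most plainly from WT among the CUC genes. The mature microRNAs come from the RefSeq annotation of the TAIR10.1 assembly and have bases 2 to 8, the seed, in capitals. They lie at chr2:19520770-19520790 (miR164a), chr5:287586-287606 (miR164b-5p) and chr5:9852684-9852704 (miR164c-5p), all on the plus strand.
miR164a: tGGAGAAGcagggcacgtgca
miR164b-5p: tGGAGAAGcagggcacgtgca
miR164c-5p: tGGAGAAGcagggcacgtgcg

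The 21-base windows of the annotated transcripts nearest to a perfect complement of miR164a follow, on the transcript strand, with bases that depart from the complement in capitals. They lie at chr5:21902301-21902321 (CUC2, minus strand), chr3:5111137-5111157 (CUC1, plus strand), chr1:20947142-20947162 (NAC1, minus strand) and chr1:28672053-28672073 (CUC3, minus strand), each in coding sequence.
CUC2: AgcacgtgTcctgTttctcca
CUC1: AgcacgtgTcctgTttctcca
NAC1: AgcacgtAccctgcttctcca
CUC3: CAcaTgCTAcTAgAttctcca

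CUC2 and CUC1 share the same window, with the departures T1A, C9T and C14T, counted from 1 at the 5′ end of the window and written as the base of the complement, its position and the base of the transcript. NAC1, another NAC gene known as a miR164 target, departs at T1A and G8A. The best window of CUC3 departs at 9 of the 21 bases. These are reference sequences, and the deposited counts hold no reads from which the sequence in the CUC2gm-4 plants could be read.

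Depth and library differences frame what follows. Total counts ran from 17361433 to 24442714 over the 6 libraries, so that 3 counts correspond to 0.123 to 0.173 CPM. Within each genotype the libraries differed by more than counting error, and each was counted as 1 sample. WT 1 stood apart from the other WT libraries on cell type markers: the summed level of the 4 shoot meristem markers STM, CLV3, WUS and KNAT1 was 3.62 normalised CPM (CPM, read counts scaled by the library total, divided by edgeR's TMM factors) there, 31.3 and 32 in WT 2 and 3, and 22, 42.8 and 47.2 in CUC2gm-4. Its 4 leaf mesophyll markers (RBCS1A, CAB1, RCA and LHCB2.2) summed to 62531 against 34092 and 29901 in WT 2 and 3, and to 35304, 24347 and 30678 in CUC2gm-4. The mesophyll markers place the samples as leaf tissue. Markers of root (104 to 178 normalised CPM, nearly all from PYK10), floral organs (0.965 to 1.61) and seed (0 to 0.614) were low beside them. In whole shoots, fewer cells of a type and less RNA per cell cannot be told apart.

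CUC2 stood far higher in every library labelled CUC2gm-4 than in any WT library. CUC2 (AT5G53950, chr5:21901704-21903854, minus strand of TAIR10.1) had 13, 53 and 55 counts in WT 1, 2 and 3 and 779, 656 and 1062 in CUC2gm-4 1, 2 and 3. CPM of the library total were 0.707, 3.05 and 2.40 in WT and 31.9, 34.6 and 45.2 in CUC2gm-4. The lowest CUC2gm-4 library thus lay far above the highest WT library, and the groups did not overlap. The means were 2.05 ± 1.21 CPM in WT and 37.2 ± 7.03 CPM in CUC2gm-4 (SD, n = 3). This difference of 35.2 CPM had p = 0.1 in a 2-sided exact permutation test, the smallest value that 3 against 3 libraries allow. Summed over libraries, the CUC2 level was 18.1-fold higher, with a 95% interval of 15.1 to 21.9 that covers counting error only. In edgeR's quasi-likelihood test, Benjamini-Hochberg adjusted over all genes, CUC2 rose by 4.12 on the log2 scale (SE 0.42, adjusted p = 0.0077), and by 3.76 to 4.46 when single libraries were left out. The call was lost without CUC2gm-4 3, where edgeR's adjusted p was 0.06, the highest among its alternatives. This level goes against the description of CUC2gm-4 as a knock out, so the libraries are named by their label throughout.

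The other CUC genes did not pass. CUC3, the paralogue without the miR164 window, had 0.811, 2.68 and 1.61 normalised CPM in WT and 2.37, 2.34 and 2.87 in CUC2gm-4. The log2 fold change of CUC3 was 0.57 (SE 0.38, adjusted p = 0.827) in edgeR's quasi-likelihood test, and its groups overlapped. CUC1 lay below the count minimum of 1 CPM in 3 libraries, at 0.562, 1.23 and 0.677 normalised CPM in WT and 0.281, 0.847 and 0.246 in CUC2gm-4. Per kilobase of gene model, the levels in CUC2gm-4 were 31.0 normalised CPM for CUC2, 2.29 for CUC3 and 0.47 for CUC1, against 1.76, 1.54 and 0.844 in WT. The 3 miR164 precursors were listed at 0 to 0.123 normalised CPM in the 6 libraries, which a selection for messenger RNA at this depth does not resolve.

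Transcripts with a window close to miR164 were followed next. Allowing at most 4 departures, 13 transcripts held such a window. CUC1, NAC080, NAC100, AT3G12977 and AT1G10530 were below the count minimum and not tested. Of the others CUC2 alone was called in edgeR, with or without the replicate number in the model. NAC1 was at 5.80, 6.19 and 2.07 normalised CPM in WT and 4.02, 2.34 and 1.72 in CUC2gm-4. Its log2 fold change of -0.79 (SE 0.47) had an adjusted p of 0.82 in edgeR's quasi-likelihood test, and the groups overlapped.

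**Figure D1:**
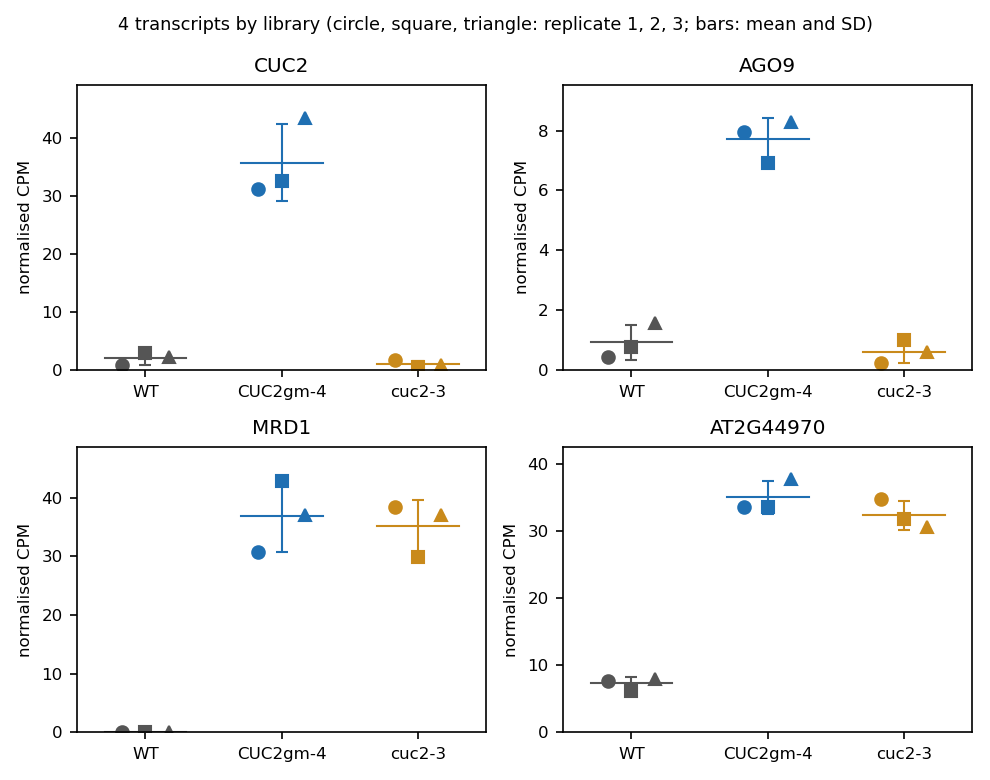
Normalised CPM (vertical axes) of CUC2, AGO9, MRD1 and AT2G44970 in each library of WT, CUC2gm-4 and cuc2-3, with the symbol giving the replicate number and bars giving the mean and SD of 3 libraries. CUC2 and AGO9 stand high in CUC2gm-4 alone, at 31.3 to 43.5 and 6.93 to 8.27, whereas MRD1 and AT2G44970 stand high in both mutants.

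Few genes cleared the spread between libraries when genotype was the only factor. Of 18291 genes tested, 3 were higher in CUC2gm-4 (0.0164%) and 0 were lower (0%) in edgeR's quasi-likelihood test, Benjamini-Hochberg adjusted at 0.05. The 3 were MRD1, AT2G44970 and CUC2. Before adjustment 1185 genes had p below 0.05, and DESeq2 called 44 genes higher (0.241%) and 37 lower (0.202%). The count was 2 without CUC2gm-4 3 (CUC2 lost), 5 without WT 3 and 8 without cuc2-3 3. The median log2 fold change over all genes tested was -0.0025, and all 3 CUC2gm-4 libraries lay above all 3 WT libraries in 5.87% of genes and below them in 5.74%.

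The replicate numbers 1 to 3 were taken to tie the libraries together across genotypes. Deviations of same-numbered libraries from their genotype means correlated positively, with r from 0.198 to 0.586. With the replicate number as a block, edgeR's quasi-likelihood test called 17 genes higher (0.0929%) and 18 lower (0.0984%), 35 in all. Of the 17 higher genes 6 are nuclear and 11 plastid-encoded, while the 18 lower genes are all nuclear. Each of the 35 had the same direction in all 3 same-numbered pairs, which their choice by the blocked fit on these pairs favours. Leaving out single libraries moved the blocked count to 6 without WT 1, 23 without WT 2, 4 without CUC2gm-4 1, 6 without CUC2gm-4 2, and 94, 62 and 65 without cuc2-3 1, 2 and 3. The direction of all 35 genes was the same in each of these fits, which reuse libraries from which the genes were picked. MRD1, AT2G44970 and CUC2 passed in all of them, and the lower genes did not: 0 of 18 passed without CUC2gm-4 1 or CUC2gm-4 2, 1 without WT 1, 8 without WT 2, 14 without WT 3 and 9 without CUC2gm-4 3.

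**Figure D2:**
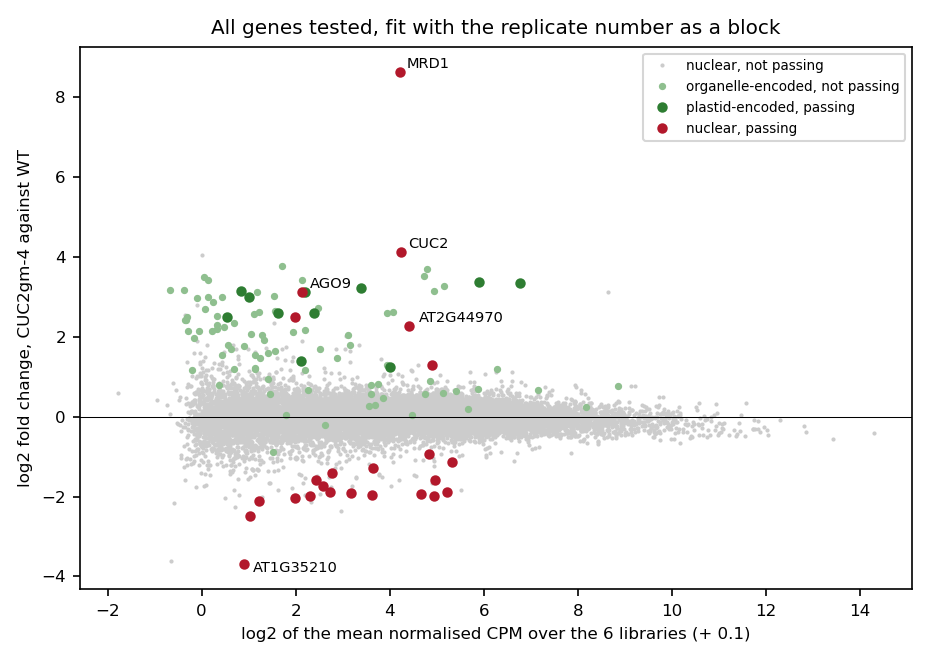
Log2 fold change of CUC2gm-4 against WT in the fit with the replicate block (vertical axis) against the log2 of the mean normalised CPM over 6 libraries (horizontal axis), 1 point for each of 18291 genes. Genes that passed are larger points, with the 11 plastid-encoded ones all above 0 and MRD1 (8.63) and CUC2 (4.12) at the top.

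The most extreme change was at MRD1, which was nearly silent in WT. MRD1 (mto 1 responding down 1, AT1G53480, chr1:19963047-19964712, minus strand) is named for its reduced transcript in the methionine over-accumulating mutant mto1. Its level was 0.125, 0.112 and 0.0423 normalised CPM in WT and 30.7, 42.8 and 37.1 in CUC2gm-4, groups that lie entirely apart. WT held 5 reads in all and CUC2gm-4 2526, a 443-fold higher summed level with a counting interval of 190 to 1366. MRD1 rose by 8.63 on the log2 scale (SE 0.32, adjusted p = 5.8e-07, edgeR's quasi-likelihood test). The level of MRD1 in cuc2-3 was 38.4, 29.9 and 37.0 normalised CPM, and the log2 difference between the mutants was 0.069. The gene overlaps HEI10, a gene of meiotic crossing over, over 1446 bp and AT1G07887 over 1039 bp on the opposite strand, and with the strand setting not given in the sources used here, reads of overlapping genes may be mixed. HEI10 had 3.99, 4.24 and 4.4 normalised CPM in WT and 7.84, 6.58 and 6.35 in CUC2gm-4 (log2 fold change 0.71, SE 0.19), which did not pass.

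AT2G44970 and AGO9 differ in whether cuc2-3 shares their level. AT2G44970, an alpha/beta-hydrolase gene (chr2:18548813-18552171, minus strand), had 7.74, 6.19 and 8.00 normalised CPM in WT and 33.7, 33.7 and 37.9 in CUC2gm-4. It rose by 2.26 on the log2 scale (SE 0.16, adjusted p = 0.00023, edgeR's quasi-likelihood test), with no overlap between the groups. Its level in cuc2-3 was 34.8, 31.8 and 30.6, a log2 difference of 0.12 between the mutants.

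AGO9 (AT5G21150, chr5:7192239-7198381, plus strand) encodes an Argonaute protein known from ovules, where it takes part in small-RNA silencing of transposable elements. Its level was 0.437, 0.781 and 1.57 normalised CPM in WT and 7.96, 6.93 and 8.27 in CUC2gm-4, so the highest WT library was well below the lowest of the mutant. The cuc2-3 libraries, at 0.230, 1.02 and 0.604, overlapped WT. The summed level of AGO9 was 8.15-fold higher in CUC2gm-4, with a counting interval of 6.21 to 10.9. It missed the threshold with genotype alone (log2 fold change 3.01, SE 0.48, adjusted p = 0.173) and rose with the block (3.11, adjusted p = 0.02), both in edgeR's quasi-likelihood test. The blocked call was lost without WT 1, WT 2, CUC2gm-4 1 or CUC2gm-4 2, with adjusted p from 0.078 to 0.140 in that test. Against cuc2-3 AGO9 was higher by a log2 fold change of 3.76 with the block (adjusted p = 0.013) and 3.66 without it (adjusted p = 0.089).

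None of the tested genes next to these 4 on the chromosome passed in edgeR. AT5G53940 beside CUC2 had a log2 fold change of -0.038, HUB1 and ASG3 beside AT2G44970 had 0.41 and -0.041, and emb1379 and LARP1a beside AGO9 had 0.021 and -0.029. HEI10, beside MRD1, is given above. AT5G53960, also beside CUC2 (0 to 2 counts), and MSL4, also beside MRD1 (9 to 23 counts), were below the count minimum and not tested.

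The last nuclear genes that rose with the block were AT3G29644 and AT2G07080. AT3G29644, a long non-coding RNA that overlaps AT3G29642 on the opposite strand over 471 bp, had 0.749, 1.73 and 0.974 normalised CPM in WT and 7.48, 4.84 and 7.41 in CUC2gm-4. Its log2 fold change was 2.51 (SE 0.34, adjusted p = 0.058; 0.02 with the block, edgeR's quasi-likelihood test), and cuc2-3 was at 6.98, 4.74 and 6.75. AT2G07080, annotated as a pseudogene, had 16.2, 18.0 and 17.8 normalised CPM in WT and 43.1, 33.0 and 51.4 in CUC2gm-4, with 19.5, 20.9 and 23.2 in cuc2-3. Its log2 fold change was 1.29 (SE 0.18, adjusted p = 0.058; 0.016 with the block, edgeR's quasi-likelihood test). The WT and CUC2gm-4 groups lay apart for both. The blocked call of AT3G29644 was lost without WT 1, WT 3 or any single CUC2gm-4 library, and that of AT2G07080 without WT 1 or CUC2gm-4 1.

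Of the 18 genes that fell with the block, 5 belong to the list of touch and immediate early genes and 2 to that of the CBF cold regulon. Both lists were written with earlier results of these data known. Touch and immediate early genes are switched on within minutes of a stimulus and decay again quickly, and many encode short-lived regulators. RHL41, a zinc finger transcription factor also known as ZAT12, had 7.61, 6.42 and 4.66 normalised CPM in WT and 1.33, 2.14 and 1.19 in CUC2gm-4. All 3 mutant libraries of RHL41 lay below WT. Its log2 fold change was -2.01 (SE 0.37, adjusted p = 0.251; -2.02 with adjusted p = 0.02 in the blocked fit of edgeR's quasi-likelihood test), and DESeq2 gave an adjusted p of 0.00043.

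Among ethylene response factors, ERF104 had 1296, 1453 and 391 counts in WT and 391, 404 and 183 in CUC2gm-4, a normalised level of 16.6 to 81.1 CPM in WT with 15.7 and 7.49 in CUC2gm-4 1 and 3. ERF105 (AT5G51190) had 24.5, 27.6 and 6.65 in WT and 4.78, 8.32 and 2.05 in CUC2gm-4. In both genes WT 3 was low, near the CUC2gm-4 libraries 1 and 2, and the groups overlapped, while every mutant library lay below the WT library of its number. They fell by log2 fold changes of -1.88 (adjusted p = 0.031) and -1.96 (adjusted p = 0.015) with the block in edgeR's quasi-likelihood test, and DESeq2 without the block called neither (0.455 and 0.611). ERF105 overlaps AT5G51180 over 965 bp on the opposite strand.

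A carrier and an enzyme of the touch list also had a low WT 3. DIC2, a mitochondrial dicarboxylate carrier, had 79.9, 51.3 and 16.4 normalised CPM in WT and 9.65, 19.4 and 6.55 in CUC2gm-4. CAF1a, a deadenylase subunit that shortens the poly(A) tails of messenger RNAs, had 66.5, 49.9 and 23.5 in WT and 13.1, 25.5 and 8.85 in CUC2gm-4. Both fell with the block, DIC2 by -1.98 (adjusted p = 0.034) and CAF1a by -1.60 (adjusted p = 0.03) on the log2 scale in edgeR's quasi-likelihood test, with overlapping groups. AT4G29780, annotated as a nuclease, had 61, 43.9 and 16.2 normalised CPM in WT and 10.3, 15.7 and 5.37 in CUC2gm-4 (-1.95, adjusted p = 0.034 with the block).

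CBF1 and CBF2 encode the transcription factors that switch on cold-responsive genes. CBF1 had 3.93, 3.29 and 3.60 normalised CPM in WT and 1, 0.947 and 0.614 in CUC2gm-4, with no overlap. CBF2 had 11.1, 8.87 and 4.02 in WT and 2.73, 3.39 and 1.60 in CUC2gm-4, also without overlap. The blocked log2 fold changes were -2.12 (adjusted p = 0.034) for CBF1 and -1.58 (adjusted p = 0.034) for CBF2 in edgeR's quasi-likelihood test.

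The other lower genes are on neither of these lists, apart from PR4 on the jasmonate list. AT1G35210 fell most, from 3.74, 5.36 and 0.762 normalised CPM in WT to 0.121, 0.349 and 0.205 in CUC2gm-4, with 174 reads against 15 and a summed level that was 13.2-fold lower (counting interval 7.8 to 24.1). AT1G72910 and AT1G72920, neighbouring genes with a TIR domain as found in plant immune receptors, followed WT 3 in the same way. AT1G72910 had 324, 352 and 63 counts in WT and 87, 124 and 28 in CUC2gm-4, and AT1G72920 had 9.36, 11.3 and 2.5 normalised CPM against 1.61, 3.54 and 0.778. CUC2gm-4 2 exceeded WT 3 in both. The legume lectin gene AT3G16530 had 9.73, 14.7 and 6.65 in WT and 2.77, 3.69 and 1.84 in CUC2gm-4, with the groups apart, and overlaps AT3G16525 over 783 bp. Its blocked log2 fold change of -1.88 had the smallest adjusted p of the 18, 0.011 in edgeR's quasi-likelihood test. AT3G09870, of the auxin-responsive SAUR type, had 3.43, 5.58 and 0.889 in WT and 0.281, 1.2 and 0.287 in CUC2gm-4, an overlap of WT 3 with the mutant.

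WT 3 was not the lowest WT library for AT3G61560 and AT1G27020, nor for CBF1 above. The reticulon family gene AT3G61560 had 8.17, 9.82 and 9.14 normalised CPM in WT and 1.65, 2.89 and 3.73 in CUC2gm-4, and overlaps AT3G61570 over 751 bp. It fell by -1.74 with the block (adjusted p = 0.022, edgeR's quasi-likelihood test; 2.1e-05 in DESeq2). AT1G27020 had 6.30, 11.8 and 11 in WT and 3.01, 5.28 and 2.83 in CUC2gm-4, and AT1G32920 had 33.9, 45.8 and 32.8 against 15.8, 22.8 and 19.8, with the groups apart in both. In cuc2-3 AT1G32920 was at 24.8, 26 and 22.1, also below every WT library, while AT1G27020 (5.47, 9.88 and 6.68) overlapped WT. The peroxidase gene AT4G11290 had 17.7, 23.9 and 11.3 against 5.67, 8.72 and 6.76. PR4, which encodes a chitin-binding defence protein, had 40.7, 85.8 and 36.2 against 16.6, 42.2 and 17, where CUC2gm-4 2 reached into the WT range.

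Over these 18 genes, picked by the blocked fit, the groups did not overlap in 10, while 5.74% of all genes lay apart below WT. WT 3 was the lowest WT library in 15 of the 18 (39.6% of all genes tested), and CUC2gm-4 3 was the lowest mutant library in 12 (27.1% of all). Only 4 of the 35 genes called with the block also passed against cuc2-3 with the block, where 7 genes passed in all (0.0383%). These were CUC2, AGO9, PR4 and AT4G11290, the latter pair with blocked log2 fold changes of -1.17 and -1.40 (adjusted p = 0.033 for each, edgeR's quasi-likelihood test). The comparison with cuc2-3 uses the same CUC2gm-4 libraries as the comparison with WT.

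**Figure D3:**
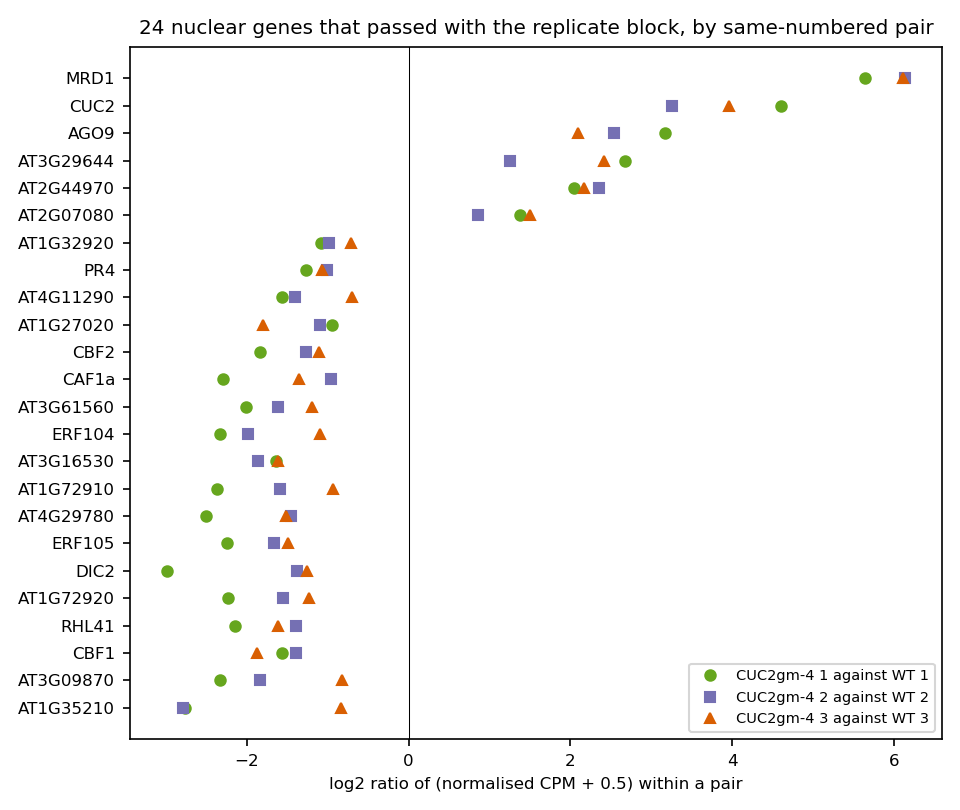
Log2 ratio of normalised CPM (plus 0.5) of CUC2gm-4 over the same-numbered WT library (horizontal axis) for the 24 nuclear genes that passed with the replicate block, 1 symbol per pair. All 18 lower genes lie left of 0 and all 6 higher genes right of it in the 3 pairs, with MRD1 farthest to the right. The blocked fit picked the genes from these same pairs, which favours such a pattern.

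The touch and immediate early list gives the wider context for RHL41, ERF104, ERF105, CAF1a and DIC2. Of its 22 members tested, 20 had values below 0, 5 fell with the block and 0 rose, against 0.0984% of all genes that fell. As the list was written with earlier results of these data known, these counts describe it and are no test of it. The median log2 fold change was -1.36 beside -0.0025 for all genes, and in 9 members all 3 mutant libraries lay below WT (5.74% of all genes). STZ, a zinc finger repressor, had 57.3, 48.6 and 12.1 normalised CPM in WT and 8.56, 14.3 and 5.49 in CUC2gm-4 (-2.06). WRKY40, a transcription factor that restrains defence, had 10.4, 7.09 and 8.89 against 1.33, 4.24 and 1.97 (-1.82; DESeq2 adjusted p = 0.0069, blocked edgeR adjusted p = 0.059). TCH2 and TCH4, the calmodulin-like and cell-wall genes that gave the touch response its name, were the 2 positive members, at 0.15 and 0.028.

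The summed level of the touch list differed between libraries of a genotype as well as between genotypes. It was 1140, 1113 and 705 normalised CPM in WT 1, 2 and 3 and 371, 935 and 460 in CUC2gm-4 1, 2 and 3, so that CUC2gm-4 2 exceeded WT 3. In cuc2-3 it was 436, 1313 and 415. Pair by pair, the list's median log2 ratio was -1.87, -0.56 and -1.15 for numbers 1, 2 and 3. Without WT 1 the median of the list was -1.19, and over single libraries left out it ran from -1.74 (CUC2gm-4 2) to -1.11 (CUC2gm-4 3).

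Evening clock genes, which follow the time of day, also differed between libraries of a genotype. FKF1, a light sensor that peaks late in the day, had 80.6, 62.0 and 12.9 normalised CPM in WT and 56.5, 63.1 and 4.55 in CUC2gm-4. The summed evening list was 579, 443 and 235 in WT and 492, 438 and 190 in CUC2gm-4, lowest in library 3 of both. In cuc2-3 FKF1 was at 15.9, 75 and 5.26 and the list at 262, 585 and 194. Library 1 was thus low in cuc2-3 as well, unlike library 1 of WT and CUC2gm-4. The part of this library pattern in the touch result was not tested.

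**Figure D4:**
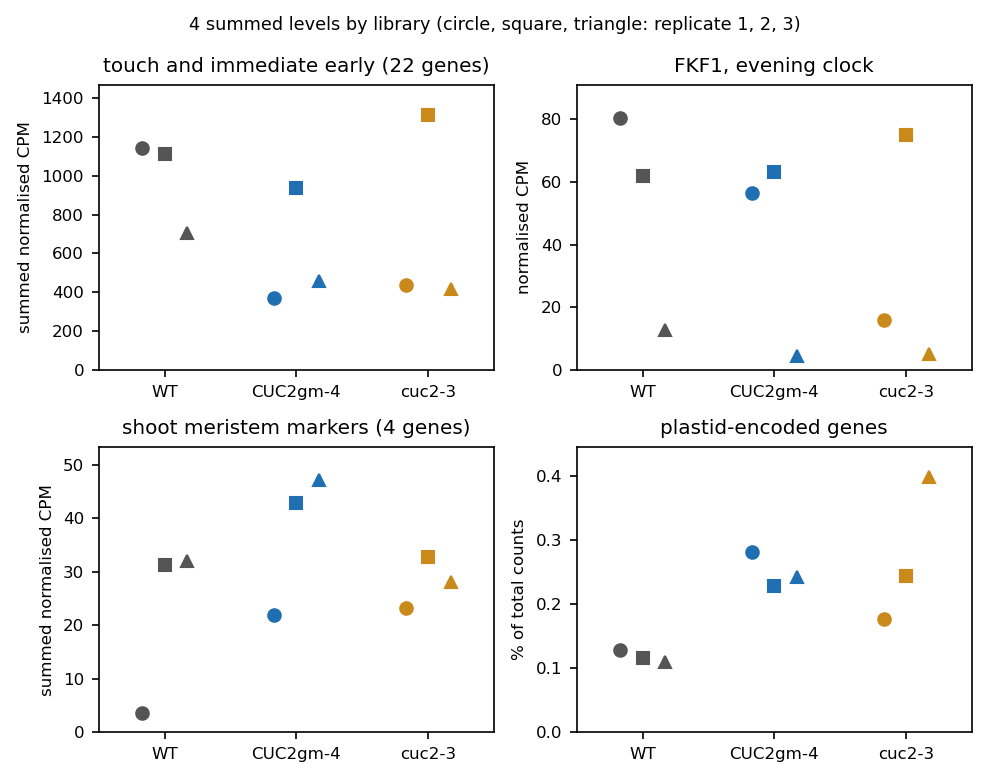
Level in each library (vertical axes, in summed normalised CPM, in normalised CPM for FKF1 and as a percent of counts for plastid-encoded genes) for WT, CUC2gm-4 and cuc2-3, with the symbol giving the replicate number. Touch genes are low in libraries 1 and 3 of CUC2gm-4 (371 and 460) and of cuc2-3 (436 and 415). FKF1 is low in every replicate 3 and in cuc2-3 1 (15.9), and WT 1 stands low for meristem markers (3.62). The plastid share is higher in all CUC2gm-4 (0.229 to 0.282%) and all cuc2-3 libraries (0.177 to 0.398%) than in WT.

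The CBF cold regulon comprises CBF1, CBF2, their relative DREB1A and the protective proteins they induce. Of 12 members tested, 11 were negative and 2 fell with the block, CBF1 and CBF2, and the median log2 fold change was -0.53. All 3 mutant libraries lay below WT in 4 of the 12 (5.74% of all genes), and 0.0984% of all genes fell with the block. The summed level was 2100, 2040 and 1377 normalised CPM in WT and 1317, 2279 and 1232 in CUC2gm-4, so the groups overlapped, and the median was -0.30 without WT 1 and -0.26 without CUC2gm-4 3. None of the cold-induced target genes passed in edgeR.

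Promoters of the genes that fell together were searched on both strands for 6 short motifs from 250 bases before to 50 after the annotated start. The letters CGCGTT, the rapid stress response element, were present in 3 of the 18 promoters (16.7%), beside 3.4% of all 27443 promoters and 3.74% of those of genes tested. The 3 were DIC2, CBF2 and AT4G29780. TTGACC, a W-box form, was in 16.7% beside 14.2% of all, AAATATCT, the evening element, in 16.7% beside 5.65%, GCCGCC in 5.56% beside 2.57%, CACGTG in 5.56% beside 7.68%, and CCGAC in 5.56% beside 15%. In the touch list CGCGTT was in 2 of 24 promoters, DIC2 and TCH2, and TTGACC in 7 of 24 (29.2%). In the CBF list AAATATCT was in 5 of 12 (41.7%), and CCGAC, the core of the site that CBF proteins bind, in 4 of 12 (33.3%). A match is a run of letters and not a shown binding site.

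The 250 bases before the start of DIC2 (chr4:12686209-12686458, plus strand) and CBF2 (chr4:13016236-13016485, minus strand), which are both in the lower group and carry CGCGTT, are printed on the strand of the gene from the TAIR10.1 assembly with that motif in capitals. Its first base lies 139 bases before the start in DIC2 and 74 before it in CBF2.
DIC2: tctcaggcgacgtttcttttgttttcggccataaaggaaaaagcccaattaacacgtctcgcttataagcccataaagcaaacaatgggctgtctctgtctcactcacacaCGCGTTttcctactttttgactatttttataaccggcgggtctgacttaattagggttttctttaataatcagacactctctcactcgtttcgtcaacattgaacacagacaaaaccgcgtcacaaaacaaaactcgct
CBF2: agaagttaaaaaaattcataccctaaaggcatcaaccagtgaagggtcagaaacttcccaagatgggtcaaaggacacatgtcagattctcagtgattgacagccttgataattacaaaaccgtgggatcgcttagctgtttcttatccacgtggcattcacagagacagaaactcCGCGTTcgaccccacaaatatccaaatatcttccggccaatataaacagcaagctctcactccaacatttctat

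Plastid-encoded transcripts were higher in CUC2gm-4 than in WT. They made up 0.128, 0.116 and 0.110% of counts in WT and 0.282, 0.229 and 0.242% in CUC2gm-4, means of 0.118 ± 0.00924% and 0.251 ± 0.0279% (SD, n = 3). All 3 mutant libraries were above WT, a 2.12-fold difference with p = 0.1 in a 2-sided exact permutation test, the smallest possible with 3 against 3. The cuc2-3 libraries had 0.177, 0.244 and 0.398%. Of the 77 plastid genes tested 75 were positive, with a median log2 fold change of 1.67, and the 3 mutant libraries lay above WT in 64 (83.1%, beside 5.87% of all genes). With the block 11 of them rose and 0 fell (0.0929% and 0.0984% of all genes). Of these 11 calls 1 was left without WT 1, without WT 2, without CUC2gm-4 1 and without CUC2gm-4 2, 4 were left without WT 3 and 8 without CUC2gm-4 3. All 11 stayed positive in each of these fits, which reuse libraries from which the genes were picked.

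The 11 plastid genes share their libraries and are named by identifier, as the reference used here gives them no symbol. ATCG00020 had 5.87, 6.25 and 32.2 normalised CPM in WT and 81.6, 119 and 113 in CUC2gm-4 (blocked log2 fold change 3.38, adjusted p = 0.02, edgeR's quasi-likelihood test). ATCG00040 had 1.44, 1.17 and 3.81 against 14.4, 21.1 and 20.5 (3.21, adjusted p = 0.0015 in the same test). ATCG00220 had 11.5, 8.20 and 8.72 against 23.7, 27.8 and 16.3, a smaller rise of 1.24 (adjusted p = 0.03 in the same test). The groups lay apart in all 11, and WT 3 was the highest WT library in ATCG00020 and ATCG00040 but not in ATCG00220.

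Against cuc2-3 the median log2 difference of the plastid genes was 0.12. Mitochondrion-encoded transcripts, far rarer, made up 0.00139, 0.00156 and 0.00209% of counts in WT and 0.00455, 0.00603 and 0.00572% in CUC2gm-4 (3.23-fold, exact permutation p = 0.1). All 16 tested were positive with a median log2 fold change of 2.23, and none passed. The 18S ribosomal RNA AT3G41768, which a selection for messenger RNA should remove, was at 0.749, 1.06 and 1.95 normalised CPM in WT and 4.62, 7.13 and 11.8 in CUC2gm-4, a difference that did not pass (adjusted p = 0.79, edgeR's quasi-likelihood test) and was picked out after its values were seen. The part of that selection step in the organelle levels was not tested.

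Nuclear genes of photosynthesis did not share that direction. All 21 tested members of the list (Rubisco small subunits, Rubisco activase, light-harvesting proteins and others) were below 0, the median log2 fold change being -0.35, and none passed. RBCS2B, a Rubisco small subunit, had 1893, 1052 and 901 normalised CPM in WT and 1099, 737 and 681 in CUC2gm-4 (-0.61). LHCB3, of the light-harvesting antenna, had 4498, 4018 and 4273 against 3107, 2919 and 3756 (-0.39), 1 of 3 members whose groups lay apart below WT (5.74% of all genes). The list's median was -0.65, -0.40 and 0.029 in pairs 1, 2 and 3, and it was -0.074 without WT 1, the library with high mesophyll markers.

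**Figure D5:**
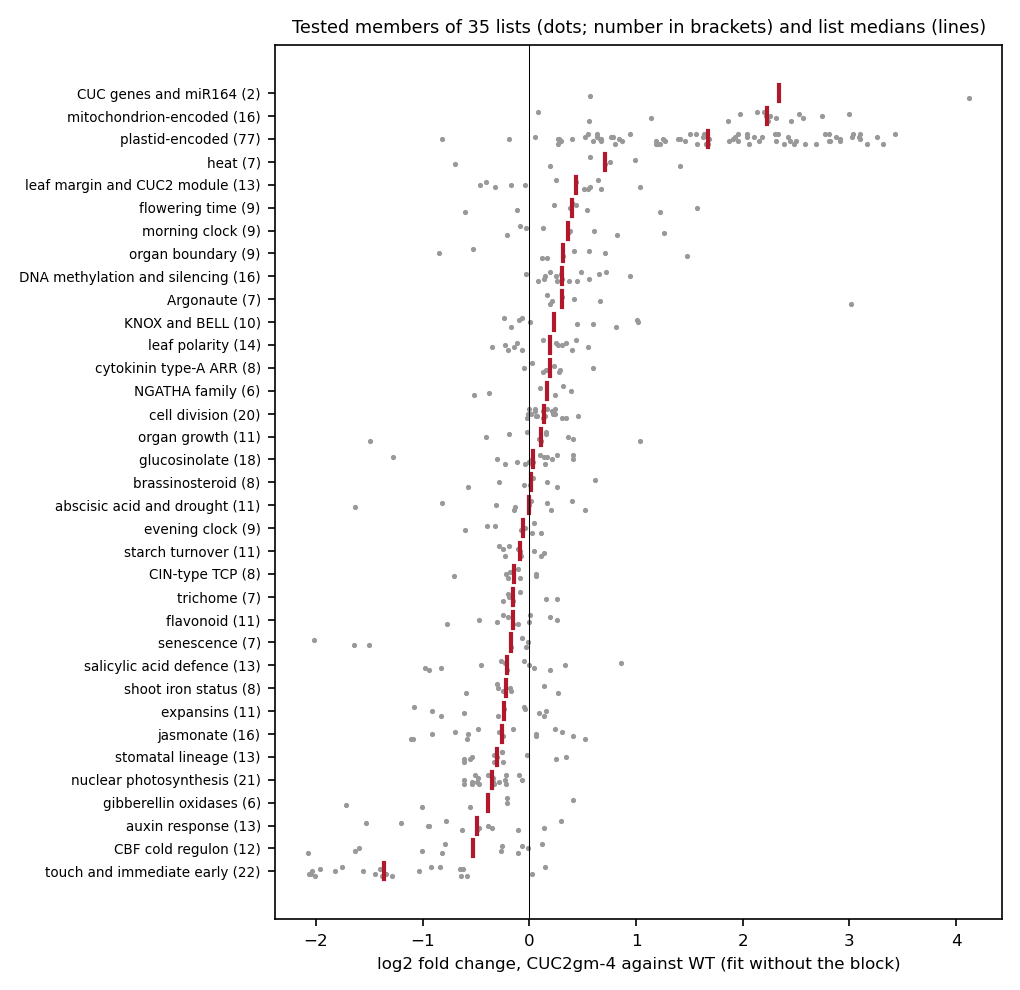
Log2 fold change of CUC2gm-4 against WT (horizontal axis) for each tested member of 35 gene lists, ordered by the list median, with the number of members tested in brackets. Touch genes lie lowest with a median of -1.36, and mitochondrial (2.23) and plastid genes (1.67) lie among the highest.

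Several growth and signalling genes listed for the leaf margin, where CUC2 acts, were higher without passing. The libraries are of whole shoots, so the place of these levels was not measured. The list of leaf margin genes had 13 tested members, 8 positive, with a median log2 fold change of 0.44 (0.37 without WT 1 and 0.29 without CUC2gm-4 3), and in 5 the CUC2gm-4 libraries lay above all WT libraries (5.87% of all genes). ERL1, a receptor kinase of the ERECTA family, had 6.93, 6.98 and 6.22 against 10.3, 9.32 and 11.7 (0.64). Its relatives ERL2 and ER also lay apart, ERL2 at 18.1, 21.5 and 17.7 against 31.0, 24 and 28.6. CYP78A5, a cytochrome P450 of organ growth also called KLUH, had 4.31, 19.4 and 19.3 against 25.5, 30.3 and 33.1 (1.04), with WT 1 far below the other WT libraries. In edgeR no member of the list passed with or without the block.

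Boundary and meristem genes near CUC2 in function did not pass either. Of 9 organ boundary genes tested 7 were positive, with a median of 0.32 that was 0.15 without WT 1 and 0.50 without WT 2. PAN, a bZIP factor, was the member whose groups lay apart, at 9.92, 15.3 and 15.2 normalised CPM in WT and 17.3, 17.9 and 19.1 in CUC2gm-4. Groups lay apart in this direction in 5.87% of all genes. MYB117, also called LOF1, had 0.250, 0.726 and 2.88 against 2.17, 3.04 and 5.94 (1.48), with WT 3 within the range of the mutant. Among 10 KNOX and BELL homeobox genes 6 were positive and none lay apart, and the median was 0.23 (0.10 without WT 3 and 0.38 without WT 2). STM, which maintains the meristem, had 1.93, 19.2 and 20.3 in WT and 13.1, 28.6 and 31.6 in CUC2gm-4, so that the low WT 1 enlarges its value. Its log2 fold change of 0.81 ran from 0.30 to 1.19 when single libraries were left out. Within pairs 1, 2 and 3 the log2 ratio (normalised CPM plus 0.5) was 2.48, 0.56 and 0.63.

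Silencing genes were examined beside AGO9. All 7 Argonaute genes tested were positive, with a median log2 fold change of 0.31 (0.36 without WT 1), and AGO9 alone passed with the block. Per kilobase of gene model AGO9 was at 2.56 normalised CPM in CUC2gm-4 and AGO4, which guides DNA methylation, at 36.3. Of 16 genes of DNA methylation and silencing 15 were positive, with a median of 0.31, and none passed. RDR2, an RNA polymerase that makes double-stranded precursors of small RNAs, had 6.49, 8.37 and 8.55 normalised CPM in WT and 12.6, 12.1 and 13.9 in CUC2gm-4 (0.72, adjusted p = 0.463 in edgeR's quasi-likelihood test), with no overlap. NRPD1A, the large subunit of RNA polymerase IV, had 3.62, 4.69 and 3.98 against 6.47, 7.08 and 9.99 (0.94), also apart. In cuc2-3 RDR2 was at 9.23, 11.9 and 11.6, also above every WT library, while NRPD1A (4.55, 5.76 and 4.80) overlapped WT. Against cuc2-3 the median log2 difference was 0.14 for the silencing list and 0.11 for the Argonaute list.

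Lists for growth showed small medians. Cell division genes were positive in 17 of 20 (median 0.14), with 2 of the 20 apart above WT beside 5.87% of all genes, AUR2 at 23.1, 26.1 and 27.8 normalised CPM against 31.8, 34.7 and 31.3 and CDC20.1 at 69.8, 62.5 and 58.0 against 117, 72.4 and 72.1. Leaf polarity genes were positive in 8 of 14 (median 0.19, 0.11 without WT 3), with 5 of the 14 apart above WT. Stomatal lineage genes were negative in 11 of 13 (median -0.30, -0.26 without WT 1 and -0.49 without CUC2gm-4 1), with 3 of the 13 apart below WT beside 5.74% of all genes. Among these, EPF2, a peptide that limits stomatal entry, had 11, 14.1 and 10.7 against 8.56, 6.93 and 7.90, and FMA, which completes guard cell fate, had 19.0, 15.2 and 11.5 against 9.97 to 11.3. None of the members of these 3 lists passed in edgeR with or without the block.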

How the data were processed

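Poly(A)-selected RNA of 9 aerial samples was sequenced by the submitters as stranded single-end Ion Torrent Proton libraries sized at 230 bp, per the labels' protocols. The deposited values are whole-number read counts per gene model (33602 per library), made per the file headers with sam2pkm after removal of reads with several equal placements. The submitters' processing notes name the build TAIR10, with the aligner and the counting's strand setting not given in the sources used here. Removal of such reads lowers the counts of recent gene copies. Of the reads in the 6 libraries, 95.4 to 96.3% mapped. Symbols, positions and sequences came from the RefSeq annotation of TAIR10.1, which held 32835 of the identifiers and named 10654. Intervals and floors cover counting error only.

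Genes that reached a CPM of 1 in 3 or more of the 9 libraries (CUC2 kept) were tested with edgeR 4.0.16 in R 4.3.3 (TMM, quasi-likelihood, genotype as factor, all 9 libraries, Benjamini-Hochberg at 0.05), which left 18198 nuclear, 77 plastid and 16 mitochondrial genes. The cuc2-3 libraries enter for the estimate of the spread. The SE is the log2 fold change divided by the root of F. Alternatives were the replicate block, DESeq2 1.42.0, limma-voom (limma 3.58.1), the 6 libraries alone, other scaling and minimums, nuclear genes alone and each library left out. Tables, exact tests and figures used Python 3.11.15, pandas 2.3.3, scipy 1.17.1 and matplotlib 3.10.9. The procedure was tested on simulated counts. Chi-square values between libraries of a genotype were 36.1 to 113 per gene.

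The labels give the genotypes the same replicate numbers without saying what they stand for. After subtraction of genotype means, same-numbered libraries correlated with r = 0.546, 0.253 and 0.453 for WT with CUC2gm-4 and 0.198 to 0.586 over all 9 pairs, and other pairs with -0.477 to 0.188, so the numbers were taken to pair the libraries. Deviations within a genotype sum to 0, so positive values for same-numbered pairs lower those of other pairs, and this contrast is partly built in. WT 1 correlated almost equally with cuc2-3 1 (0.198) and cuc2-3 2 (0.188). The common biological coefficient of variation fell to 0.177 with the block, from 0.237.

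Named genes are those that passed with or without the block, up to 10 per direction with the largest fold change among DESeq2 calls whose groups lay apart, up to 4 members per list with the smallest blocked p, the CUC and miR164 genes, and chromosomal neighbours. Other list members named as examples were chosen after their values were seen. Members, lists and tests were chosen with earlier results of these data known. Of 405 distinct list members 366 were tested, 401 were matched by symbol and 4 by identifier alone. Totals of the lists include 1 gene whose own values are not reported here.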

Additional observations from a re-analysis of the deposited data

How the results depend on the processing

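MRD1 and AT2G44970 passed in every alternative run. The count of 3 genes was 35 with the replicate block (pairing by number), 6 with the 6 libraries alone, 111 with the 6 libraries and the replicate block, 81 in DESeq2, 226 in DESeq2 with the replicate block and 9 with no count minimum. It was 3 in limma-voom, with RLE factors, library totals, a minimum of 5 CPM and nuclear genes alone, and 2 to 8 with single libraries left out. The blocked count of 35 was 56 with library totals, 536 with no count minimum (31556 genes tested), 26 at 5 CPM, 24 with nuclear genes alone and, with single libraries left out, 4 to 94 (6 without WT 1, 23 without WT 2, 62 and 65 without cuc2-3 2 and 3). Against cuc2-3 the count of 3 was 7 with the block, 25 in DESeq2 and 3 to 4 with single libraries left out. The CUC2 difference of 35.2 CPM ran from 31.2 to 37.9 with single libraries left out. The 44 genes named by a call passed in edgeR, with or without the block, or in DESeq2 with their groups apart. In edgeR without the block only 3 of them passed. Over their 1396 alternative values 431 gained a call, 1 lost it (CUC2 without CUC2gm-4 3) and 0 reversed a call. Gains were favoured by that choice, as the blocked and DESeq2 fits are among the alternatives. Most blocked calls were lost without WT 1, CUC2gm-4 1 or CUC2gm-4 2. Of the 418 alternative list medians, 16 moved by more than the spread between pairs. The auxin response median of -0.49 was 0.42 without WT 3, and the morning clock median of 0.36 was -0.27 without CUC2gm-4 3. Library totals in place of TMM moved the median of all genes to 0.083. Blocked calls for the 18 lower genes need both CUC2gm-4 1 and CUC2gm-4 2, and depth limits CUC1 and the miR164 precursors.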

Other observations

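Further genes on the lower side were called by DESeq2 without the block, and in edgeR neither with nor without it. MRU1 (mto 1 responding up 1), named for the opposite response to that of MRD1 in mto1, was at 5.37, 4.52 and 2.29 normalised CPM in WT and 1, 1.4 and 1.27 in CUC2gm-4, a log2 change of -1.72 (DESeq2 adjusted p = 0.022, blocked edgeR adjusted p = 0.093). WOX5, a homeobox gene best known from the root stem cell niche, was at 2.68, 2.68 and 3.17 against 1.25, 1.35 and 0.532 (-1.45, DESeq2 adjusted p = 0.045). ERF11, an ethylene response repressor, was at 7.80, 5.86 and 10 against 2.49, 3.59 and 2.62 (-1.45, DESeq2 adjusted p = 0.027). These 3 genes were picked among DESeq2 calls whose groups lay apart, so every CUC2gm-4 library lay below every WT library by that choice.

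Auxin response genes (Aux/IAA, GH3 and SAUR) had a median log2 fold change of -0.49 with 11 of 13 negative, and their summed level was 139, 174 and 481 normalised CPM in WT 1, 2 and 3 against 160, 176 and 272 in CUC2gm-4. Library 3 was the highest of each genotype, cuc2-3 included (174, 149 and 355), and without WT 3 the median was 0.42 with 10 of 13 positive. Heat genes were positive in 6 of 7 with a median of 0.71, and in 2 of the 7 the groups lay apart above WT (5.87% of all genes). Flowering time genes were positive in 7 of 9 with a median of 0.40. No member of these 3 lists passed.

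A large difference that did not pass was picked out after its values were seen. The locus AT5G29890, annotated as encoding an uncharacterized protein, was at 29.4, 43.3 and 218 normalised CPM in WT, 321, 905 and 887 in CUC2gm-4 and 530, 120 and 42.1 in cuc2-3 (log2 fold change 2.86, adjusted p = 0.69; 0.29 with the block, edgeR's quasi-likelihood test).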
